A study of Sus scrofa with 6 samples.

Results

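Native porcine growth plate cartilage was compared with native porcine articular cartilage, with 1 array for each tissue, across 5598 of the 6765 genes named on the array. These 2 arrays were taken from a set of 6 by their sample titles. The other 4 arrays measured chondrocytes released with collagenase from growth plate or from articular cartilage and kept in serum-containing medium at 37 °C, 5% oxygen and 5% carbon dioxide until day 10 or day 20. The labels name no allele carried by an animal and no agent given to one. They give neither the breed, the age nor the number of pigs behind an array. A single array for each tissue gives no spread between animals, so no test was made, and a gene was described as higher or lower by the size of its ratio alone.

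Growth plate cartilage is the layer of a growing long bone in which chondrocytes divide in columns, enlarge, mineralise their matrix and are replaced by bone. Indian hedgehog from prehypertrophic cells and parathyroid hormone-related protein form a loop that sets when the cells leave division. Articular cartilage covers the joint surface, carries load, stays unmineralised and divides little in the adult. Both tissues are built from collagen II and aggrecan.

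Each value is a probe set signal, a hybridisation intensity on a linear scale, and signals of different genes are not comparable with each other. Signals under 36.1, the 40th percentile of all signals, were raised to that floor before log2 ratios were taken, and a fold against a floored array is written as at least that size. The array medians were 71.2 in native growth plate and 59.5 in native articular cartilage, 60.5% and 58.6% of probe sets lay above the floor, and the 2% trimmed means were 396 and 395. The native articular array was the least like the rest of the set, with a mean correlation across genes of 0.890 with the other arrays, where the others had 0.930 to 0.939. Of the 5598 genes, 5022 lay above the floor on both native arrays, 288 in growth plate only, 149 in articular cartilage only and 139 on neither.

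Most genes differed little between the tissues, and the large differences lay more often on the growth plate side. At least 4-fold higher in growth plate were 193 genes (3.45% of those compared), and 67 (1.2%) were lower by at least 4-fold. At 2-fold the counts were 721 higher (12.9%) and 441 lower (7.88%), which left 4436 genes (79.2%) within 2-fold. At 16-fold, 25 genes were higher and 4 lower. The ratio was a lower bound for 45 of the 193 and for 5 of the 67, since the other array lay under the floor. Of the genes past 4-fold, 2 of the 193 had passed the filter on low signals through growth plate arrays alone and 3 of the 67 through articular arrays alone, which fixed the direction of those 5.

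The balance between the directions depended on signal level and on scaling. Among genes above the floor on both arrays, the median log2 difference, growth plate minus articular, was 0.21 in the second decile of genes by signal and -0.35 in the top decile, where 119 of 503 genes had a positive difference. The median over all genes was -0.01 with the signals as deposited, -0.08 after quantile normalization and -0.26 after median centring. At 2-fold, 62.0% of the genes past the limit were higher in growth plate with the deposited signals, 49.9% after quantile normalization and 39.5% after median centring. At 4-fold the shares were 74.2%, 65.6% and 59.9%. Which side holds more 2-fold differences therefore cannot be read from these arrays, and single 2-fold calls can fall short. Of the 266 genes past 2-fold that the naming rule covers, none changed direction after quantile normalization and 32 were within 2-fold after it. Median centring left 30 within 2-fold. It shifts genes above the floor by the same amount, under 2-fold, so it could not turn the direction of any of the 266. Counts of the gene groups at 2-fold stand against 12.9% higher and 7.88% lower over all genes.

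**Figure D1:**
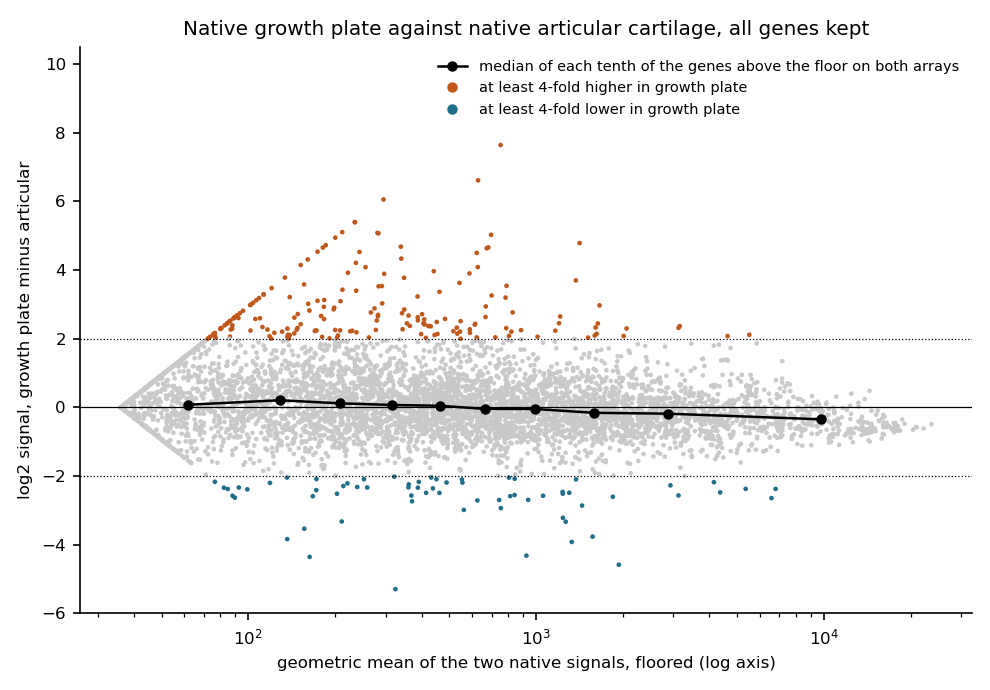
Log2 signal difference, native growth plate minus native articular cartilage, against the geometric mean of both floored native signals (log axis) for the 5598 genes. Orange points are the 193 genes higher by at least 4-fold in growth plate, blue points the 67 lower by at least 4-fold, and black points the medians of deciles of the 5022 genes above the floor on both arrays, which run from 0.21 in the second decile to -0.35 in the top decile.

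Both tissues carried the markers of cartilage, and the growth plate array carried those of mineralising cartilage. All 6 chondrocyte markers lay above the floor on both arrays, with summed signals of 37025 in the growth plate and 39900.3 in articular cartilage. Of 8 hypertrophic growth plate markers, 6 were higher by at least 2-fold in the growth plate and none was lower by at least 2-fold. After median centring 5 were higher and 0 lower. The summed signals were 31533 in the growth plate and 19739 in articular cartilage. SPP1, within 2-fold, made up almost all of the articular sum, at 14127 in the growth plate and 19241 in articular cartilage. Of the 8, ALPL and COL10A1 lay under the floor in articular cartilage and the other 6 were measured in both tissues. Among those 6, MMP13 was close to the floor in articular cartilage at 39.8, against 91.2 in the growth plate. The 4 articular surface markers split. DKK3, a secreted relative of the WNT inhibitors, had 1142 in the growth plate against 77.0 in articular cartilage, 14.8-fold higher, against its listing as an articular gene. SFRP1, which sequesters WNT ligands, had 201 in the growth plate against 632 in articular cartilage. The lubricant gene PRG4 was not analysed here, and 1 of the 4 surface markers was past 2-fold on the articular side.

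Markers of blood, endothelial and skeletal muscle cells were mostly at background on both arrays, whereas those of osteoclasts and osteoblasts passed the floor more often. For myeloid cells, 1 of 15 markers lay above the floor in the growth plate and 2 in articular cartilage, with summed signals of 268 in the growth plate and 219 in articular cartilage, and PTPRC, CD14, CD163 and C1QA were under the floor on both. Of 9 lymphoid markers, 0 in the growth plate and 1 in articular cartilage, CD8A at 61.7, passed the floor. The sums were 60.4 in the growth plate and 147 in articular cartilage. Myeloid and lymphoid sums came mostly or wholly from signals under the floor. Of 12 endothelial markers, 4 in the growth plate and 5 in articular cartilage lay above it, with sums of 614 in the growth plate and 807 in articular cartilage, and the defining receptors KDR, FLT1, TEK and TIE1 and the adhesion gene CDH5 were under it on both. PECAM1, an endothelial adhesion molecule, measured 67.2 in the growth plate against 277 in articular cartilage. Of 5 erythroid markers, 1 in the growth plate and 2 in articular cartilage passed the floor, with sums of 290.0 in the growth plate and 519 in articular cartilage, and beta globin, HBB, had 234 in the growth plate and 398 in articular cartilage. Of 6 osteoclast markers, 4 in the growth plate and 3 in articular cartilage passed it, with sums of 15202 in the growth plate and 17971 in articular cartilage set almost wholly by CTSK. The osteoclast phosphatase ACP5 had 63.5 in the growth plate and 46.6 in articular cartilage, and CALCR and ATP6V0D2 were under the floor on both. ITGB3, an integrin of osteoclasts and other cells, had 287 in the growth plate against 92.1 in articular cartilage, 3.12-fold higher, and the protease MMP9 had 47.0 in the growth plate and, under the floor, 18.3 in articular cartilage. Of 7 osteoblast markers, 4 in the growth plate and 5 in articular cartilage passed it. Their sums of 20343 in the growth plate and 24953 in articular cartilage were set almost wholly by SPARC and TNC, both within 2-fold. COL1A2 was the member past 2-fold, at 432 in the growth plate against 146 in articular cartilage, and SP7 and PHEX were under the floor on both. Skeletal muscle markers passed the floor for 1 of 9 in growth plate, MYL1 at 75.1, and for 0 of 9 in articular cartilage. Their sums, 182 in the growth plate and 117 in articular cartilage, also came mostly or wholly from signals under the floor.

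Markers of fibroblasts differed more, whereas those of mural cells went both ways. Of 7 fibroblast and synovial markers, 5 lay above the floor on each array, with sums of 9821 in the growth plate and 3269 in articular cartilage. Of these markers, 3 were higher by at least 2-fold in the growth plate, LUM, COL3A1 and THY1. LUM had 956 in the growth plate against 15.5 in articular cartilage, and COL3A1 had 262 in the growth plate against 58.0 in articular cartilage. THY1, a surface glycoprotein of fibroblasts and progenitors, had 6583 in the growth plate against 1818 in articular cartilage, and its other probe set had a log2 difference of at least 2.77. Of 8 mural and smooth muscle markers, 4 on each array passed the floor. Their sums were 13341 in the growth plate, mainly from ACTA2, and 6170.3 in articular cartilage. The 7 kept had a median log2 difference of 0. Of these, 1 was higher by at least 2-fold, 1 lower and 3 under the floor on both arrays. PDGFRB was level at 1013 in the growth plate and 1059 in articular cartilage. ACTA2, smooth muscle actin, had 11456 in the growth plate against 2642 in articular cartilage, 4.34-fold higher, while TAGLN, an actin-binding gene of smooth muscle, had 758 in the growth plate against 2365 in articular cartilage, 3.12-fold lower, and DES and MCAM were under the floor on both. Of 7 adipocyte markers, 2 in the growth plate and 4 in articular cartilage passed it, with sums of 1473 in the growth plate and 686 in articular cartilage set mainly by LPL. In bulk tissue, fewer cells of a type and less RNA per cell cannot be told apart, and the part of other cells in the differences described here was not tested.

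**Figure D2:**
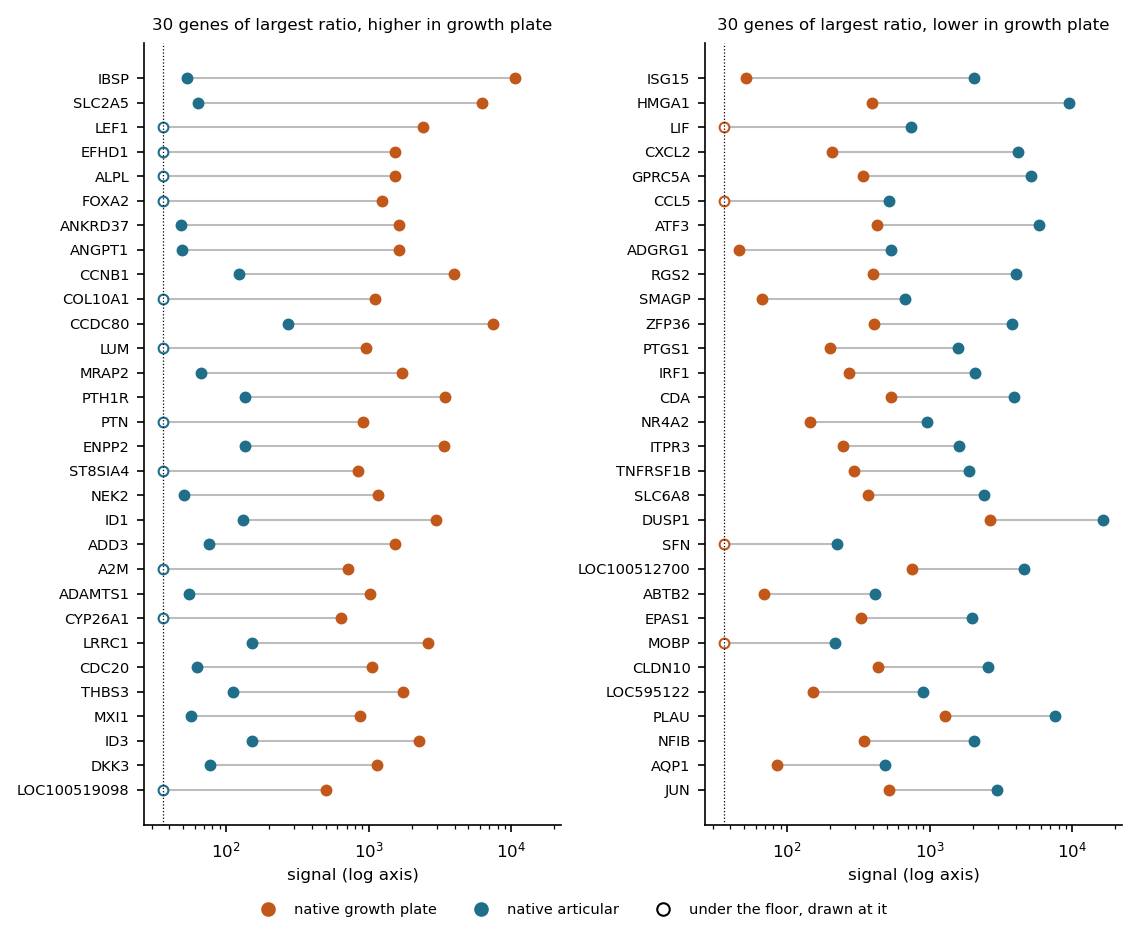
Signals (log axis) of the 30 genes of largest ratio each way, with native growth plate in orange and native articular cartilage in blue. Open circles mark signals under the floor of 36.1, drawn at the floor. The ratios run from 200.1-fold for IBSP to at least 13.8-fold for LOC100519098 among genes higher in growth plate, and from 39.2-fold for ISG15 to 5.70-fold for JUN among genes lower in growth plate.

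Hypertrophic and mineralising genes held the largest ratio of all, that of IBSP. Of 16 members kept, 9 (56.2%) were higher by at least 2-fold in growth plate, against 12.9% of all genes, and 0 were 2-fold lower. After median centring the counts were 8 and 0. The list median was 1.35, against -0.01 over all genes. ALPL, the alkaline phosphatase of mineralisation, had 1522 in the growth plate against 24.2 in articular cartilage, at least 42.1-fold higher. COL10A1, the collagen of hypertrophic cartilage, had 1114 in the growth plate against 4.51 in articular cartilage, at least 30.8-fold higher. Both genes lay under the floor in articular cartilage. FOXA2, a transcription factor of hypertrophic differentiation in the mouse, had 1244 in the growth plate against 18.1 in articular cartilage, at least 34.4-fold higher. ENPP1, which makes the pyrophosphate that restrains mineral, had 7732 in the growth plate against 2223 in articular cartilage, 3.48-fold higher. PHOSPHO1, a phosphatase of matrix vesicles, had 487 in the growth plate against 171 in articular cartilage. ENPP1 and PHOSPHO1 were measured above the floor in both tissues, with smaller ratios than the other 3.

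Not every gene of mineralised matrix followed. IBSP, which encodes bone sialoprotein and binds mineral, had 10642 in the growth plate against 53.2 in articular cartilage, 200.1-fold higher. SPP1, osteopontin, from the same gene family, had 14127 in the growth plate and 19241 in articular cartilage, a log2 difference of -0.45. SPARC, a collagen- and mineral-binding glycoprotein, had 14899 in the growth plate and 17338 in articular cartilage. The vascular growth factor VEGFA, made by hypertrophic cells, had 5588 in the growth plate and 5032 in articular cartilage. BGLAP, osteocalcin, was near the floor at 60.3 in the growth plate and 50.3 in articular cartilage. SPP1, SPARC and VEGFA thus lay within 2-fold at high signal on both arrays.

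In the Indian hedgehog loop, 2 of 4 members kept were higher by at least 2-fold and 0 lower. After either other scaling the counts were 1 and 0. PTH1R, the receptor of parathyroid hormone-related protein, had 3431 in the growth plate against 136 in articular cartilage, 25.3-fold higher. Its ligand PTHLH had 74.5 in the growth plate against 35.1 in articular cartilage, under the floor in articular cartilage, and was at least 2.06-fold higher. IHH itself had 118 in the growth plate and 69.4 in articular cartilage, a log2 difference of 0.77, and SUFU, the inhibitor of hedgehog transcription factors, had 289 in the growth plate and 228 in articular cartilage. The receptor had the largest ratio of the 4, and PTHLH was measured near the floor.

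Mitotic genes made up the largest group on the growth plate side by count, among the 28 lists. Of 36 kept, 24 (66.7%) were higher by at least 2-fold and 14 higher by at least 4-fold, against 12.9% and 3.45% of all genes, with a median of 1.70. NEK2, a kinase that separates centrosomes, had 1169.9 in the growth plate against 50.6 in articular cartilage, 23.1-fold higher. CCNB2, a mitotic cyclin, had 992 in the growth plate against 85.5 in articular cartilage. CENPF, a kinetochore protein, had 1483 in the growth plate against 144 in articular cartilage. PLK1, the kinase that drives mitotic entry, had 315 in the growth plate against 20.9 in articular cartilage, at least 8.72-fold higher. FOXM1, the transcription factor of the mitotic programme, had 118 in the growth plate against 53.0 in articular cartilage. Another 11 were within 2-fold, among them KPNA2, a nuclear import receptor, at 5112 in the growth plate and 5854 in articular cartilage. CKS2, a cyclin-dependent kinase subunit, was the member past 2-fold on the other side and had 2467 in the growth plate against 5817 in articular cartilage, 2.36-fold lower.

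Genes of DNA replication and of entry into it did not lean the same way as the mitotic ones. Of 37 kept, 2 (5.41%) were higher by at least 2-fold and 7 (18.9%) lower by at least 2-fold, against 12.9% and 7.88% of all genes, and 0 and 8 after either other scaling. The higher ones, both within 2-fold under either other scaling, were POLA2, a subunit of DNA polymerase alpha, at 129 in the growth plate against 55.5 in articular cartilage, and the histone chaperone ASF1B at 73.0 in the growth plate against 27.6 in articular cartilage. The lower ones included the replicative helicase subunit MCM2 at 494 in the growth plate against 1891 in articular cartilage, the ligase LIG1 at 91.4 in the growth plate against 266 in articular cartilage and the cyclin CCND2 at 1005 in the growth plate against 3031 in articular cartilage. Other helicase subunits also lay lower, MCM5 at 264 in the growth plate against 695 in articular cartilage and MCM4 at 52.0 in the growth plate against 124 in articular cartilage. RRM2, which makes deoxynucleotides for replication, was within 2-fold at 1401 in the growth plate and 838 in articular cartilage, and so was CDKN1A, an inhibitor of cell cycle kinases, at 2203 in the growth plate and 2552 in articular cartilage. The list median was -0.15, -0.20 after quantile normalization and -0.41 after median centring. No test of the difference between both lists was possible with 1 array a tissue.

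Among factors that act on vessels and on bone-resorbing cells, 5 of 16 (31.2%) were higher by at least 2-fold and 1 lower. ANGPT1, which activates the endothelial receptor TEK, had 1642 in the growth plate against 48.8 in articular cartilage, 33.6-fold higher, and its other probe set had a log2 difference of at least 3.45. ANGPT2, which acts on the same receptor, had 543 in the growth plate against 62.0 in articular cartilage. PTN, the heparin-binding growth factor pleiotrophin, had 912 in the growth plate against 35.0 in articular cartilage, at least 25.2-fold higher, and its relative midkine, MDK, had 1205 in the growth plate against 455 in articular cartilage. THBS2, an angiogenesis inhibitor of the matrix, had 1903 in the growth plate against 154 in articular cartilage, while its relative THBS1 had 6853 in the growth plate and 6755 in articular cartilage. Activators and inhibitors of vessel growth were thus both among the higher genes. TIMP3, an inhibitor of matrix proteases, was the member lower by at least 2-fold, at 461 in the growth plate against 1681 in articular cartilage, and another probe set had a log2 difference of -2.31.

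The BMP and TGF-beta genes went both ways, with 7 of 21 higher by at least 2-fold and 3 lower, and a median of 0.24 that was 1.4e-03 after median centring. Of the ligands, TGFB2 had 3066 in the growth plate against 749 in articular cartilage, 4.09-fold higher, whereas BMP7 had 107 in the growth plate against 534 in articular cartilage, 4.99-fold lower. Of the inhibitors and targets, BAMBI, a decoy receptor, had 963 in the growth plate against 156 in articular cartilage, and FST, which binds activins, had 252 in the growth plate against 49.7 in articular cartilage. ID1, a direct BMP target, had 2959 in the growth plate against 131 in articular cartilage, 22.7-fold higher, and ID3, another, had 2268 in the growth plate against 152 in articular cartilage, 15.0-fold higher. The type I receptor TGFBR1 had 2929 in the growth plate against 6323 in articular cartilage, 2.16-fold lower, and the signal carrier SMAD3 had 188 in the growth plate against 693 in articular cartilage, 3.69-fold lower. Ligands lay on both sides, and the 7 higher members also held a type I receptor, BMPR1B, named after its values were seen, at 72.8 in the growth plate against 35.6 in articular cartilage.

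WNT genes also divided. LEF1, a transcription factor of the pathway, had 2408 in the growth plate against 28.0 in articular cartilage, at least 66.6-fold higher. The receptor FZD2 had 311 in the growth plate against 128 in articular cartilage, 2.42-fold higher, and the co-receptor LRP6 had 274 in the growth plate against 129 in articular cartilage, 2.13-fold higher. FZD4, another receptor, had 369.8 in the growth plate against 1472 in articular cartilage, 3.98-fold lower. CTNNB1, beta-catenin, had 10188 in the growth plate and 8107 in articular cartilage. In all, 4 of 12 were higher by at least 2-fold and 2 lower, and after quantile normalization both counts were 2, so the pathway as a group had no clear side.

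FGF and IGF genes went both ways, with 2 higher and 5 lower of 17, against 12.9% and 7.88% of all genes, and a median of 0 that was -0.18 after median centring. FGFR2 had 672 in the growth plate against 116 in articular cartilage, 5.79-fold higher, while FGFR1 had 922 in the growth plate against 1881 in articular cartilage, 2.04-fold lower. The ligand FGF2 had 45.1 in the growth plate against 116 in articular cartilage, and ETV5, a transcription factor induced by FGF signalling, had 267 in the growth plate against 1144 in articular cartilage, and its dim other probe set differed by -0.61 on the log2 scale. IGF2, a growth factor of fetal tissues, had 212 in the growth plate against 627 in articular cartilage. Its binding proteins went opposite ways, with IGFBP6 at 1753 in the growth plate against 353 in articular cartilage and IGFBP5 at 41.3 in the growth plate against 208 in articular cartilage. Of 9 NOTCH genes, the ligand JAG1, at 917 in the growth plate against 248 in articular cartilage, and the effector HEY2, at 372 in the growth plate against 78.8 in articular cartilage, were higher by at least 2-fold, 0 were lower and HES1 was level at 389.7 in the growth plate and 409.7 in articular cartilage.

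Most structural genes of hyaline cartilage lay within 2-fold. Of 9 kept, 1 was higher by at least 2-fold and 1 lower by at least 2-fold. ACAN, the aggrecan core protein, measured 14874 in the growth plate and 15883 in articular cartilage. HAPLN1, which links aggrecan to hyaluronan, had 14120.3 in the growth plate and 16339 in articular cartilage. PRELP had 12292 in the growth plate and 9892 in articular cartilage and COMP, a pentameric matrix glycoprotein, had 5152 in the growth plate and 3390.0 in articular cartilage. COL2A1, the main fibril collagen, had 1615 in the growth plate and 2929 in articular cartilage. The higher member was the fibril collagen COL11A1, at 1089 in the growth plate against 378 in articular cartilage. The lower member was SOX9, the transcription factor that drives these genes, which had 175 in the growth plate against 982 in articular cartilage, 5.61-fold lower, measured by a single probe set. SOX10, the other SOX gene kept, had 17.9 in the growth plate against 91.8 in articular cartilage, at least 2.54-fold lower.

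Small leucine-rich proteoglycans, which bind collagen fibrils, split into level and high members. LUM, lumican, had 956 in the growth plate against 15.5 in articular cartilage, at least 26.5-fold higher. ASPN, asporin, had 541 in the growth plate against 45.1 in articular cartilage. BGN, biglycan, had 9948 in the growth plate and 12556 in articular cartilage, DCN, decorin, had 2379 in the growth plate and 3319 in articular cartilage, and PRELP and TSKU were also within 2-fold. The list median of 0.13 became -0.12 after median centring, with the same counts of 2 higher and 0 lower.

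Fibrous and basement membrane matrix genes differed in few members, 3 higher and 1 lower of 23, and 3 and 3 after median centring. The fibrillar collagen gene COL3A1 had 262 in the growth plate against 58.0 in articular cartilage, 4.51-fold higher, and COL1A2, of collagen I, had 432 in the growth plate against 146 in articular cartilage, 2.96-fold higher. LOX, which crosslinks collagen, had 2490.1 in the growth plate against 756 in articular cartilage. COL4A2, of basement membranes, had 89.9 in the growth plate against 230.1 in articular cartilage, 2.56-fold lower. The pericellular collagen VI genes COL6A2 and COL6A3 had log2 differences of -0.85 and -0.64. Over the collagen family as a whole, 5 of 15 were higher by at least 2-fold and 1 lower, counts that became 4 and 4 after median centring. THBS3, a thrombospondin of skeletal matrix, was outside this list and had 1744 in the growth plate against 111 in articular cartilage, 15.7-fold higher, with another probe set at a log2 difference of 3.42. CCDC80, a secreted matrix protein, had 7441 in the growth plate against 269 in articular cartilage, 27.6-fold higher, with another probe set at a log2 difference of at least 2.89.

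Genes of the articular surface and superficial zone went both ways, with 4 of 11 higher by at least 2-fold in the growth plate and 2 lower. Besides DKK3, the higher ones were SCRG1, a small secreted protein of cartilage, at 7436 in the growth plate against 2889 in articular cartilage, the extracellular peroxidase GPX3 at 119 in the growth plate against 17.1 in articular cartilage, and PTHLH. The lower ones were the water channel AQP1, at 85.1 in the growth plate against 486 in articular cartilage, and SFRP1, at 201 in the growth plate against 632 in articular cartilage. ERG, a transcription factor of joint-forming cells, had 427 in the growth plate and 781 in articular cartilage, and CLU, clusterin, had 4634 in the growth plate and 7042 in articular cartilage, both within 2-fold. TNC, tenascin C, had 4915 in the growth plate and 7346 in articular cartilage. The counts were 3 and 3 after median centring, and the list median was -0.16 as deposited.

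Matrix proteases and their inhibitors went both ways, with 6 of 25 higher and 4 lower, counts that were 4 and 5 after median centring. ADAMTS1, which cleaves aggrecan and versican, had 1018 in the growth plate against 54.9 in articular cartilage, 18.5-fold higher, and its other probe set had 579 in the growth plate and, under the floor, 20.2 in articular cartilage. The lysosomal protease CTSS had 831 in the growth plate against 152 in articular cartilage, 5.46-fold higher. MMP1, a collagenase, had 161 in the growth plate against 807 in articular cartilage, 5.02-fold lower. PLAU, the plasminogen activator urokinase, had 1284 in the growth plate against 7595 in articular cartilage, 5.91-fold lower. ADAM15, a membrane protease, had 4.87 in the growth plate against 162 in articular cartilage, at least 4.49-fold lower. A2M, which traps proteases, had 717 in the growth plate against 11.7 in articular cartilage, at least 19.8-fold higher, although its 2 other probe sets had log2 differences of 0 and 0.10. CTSK, a collagen-degrading cathepsin, had high signals in both tissues, 14768 in the growth plate and 17802 in articular cartilage.

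MMP3, stromelysin, was left out of the 5598 genes because the probe set chosen for it passed the floor on 1 array only, and it is named after its values were seen. That probe set had 27.9 in the growth plate and 1552 in articular cartilage, and the others had 26.7, 3.58 and 48.3 in the growth plate and, for the same probe sets, 38.0, 114 and 4319 in articular cartilage. The probe set with 26.7 and 38.0 lay at or near the floor on both arrays, with a log2 difference of -0.07. The others had the higher signal in articular cartilage. In the 4 cultures the chosen probe set had 20.9 and 31.1 for growth plate cells and 13.1 and 10.2 for articular cells at day 10 and day 20, all under the floor.

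Enzymes that make and sulphate glycosaminoglycan chains went both ways, with 3 higher and 2 lower of 19 and a median of -0.03, and 3 and 6 after median centring. IMPAD1, the Golgi phosphatase that sulphation depends on, had 6227 in the growth plate against 2325 in articular cartilage. CHST15, a chondroitin sulphotransferase, had 132 in the growth plate against 47.6 in articular cartilage, and HS2ST1, of heparan sulphate, had 377 in the growth plate against 139 in articular cartilage. UXS1, which makes UDP-xylose, had 1892 in the growth plate against 4055 in articular cartilage, 2.14-fold lower, and EXT1, which elongates heparan sulphate, had 213 in the growth plate against 451 in articular cartilage, 2.12-fold lower. PAPSS2, which makes the sulphate donor in cartilage, was within 2-fold at 8545 in the growth plate and 6201 in articular cartilage.

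The secretory and collagen folding genes mostly lay within 2-fold, with 1 higher and 4 lower of 47. FKBP14, a prolyl isomerase of collagen folding, was the higher one at 4413 in the growth plate against 1848 in articular cartilage. The lower ones were stress-linked chaperones and a signal peptidase subunit, SDF2L1 at 69.8 in the growth plate against 216 in articular cartilage, MANF at 2615 in the growth plate against 6929.5 in articular cartilage, HYOU1 at 986 in the growth plate against 2444 in articular cartilage and SPCS3 at 1412 in the growth plate against 3429.9 in articular cartilage. HSPA5, the main chaperone of the endoplasmic reticulum, had 11579.8 in the growth plate and 21710.0 in articular cartilage, a log2 difference of -0.91.

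**Figure D3:**
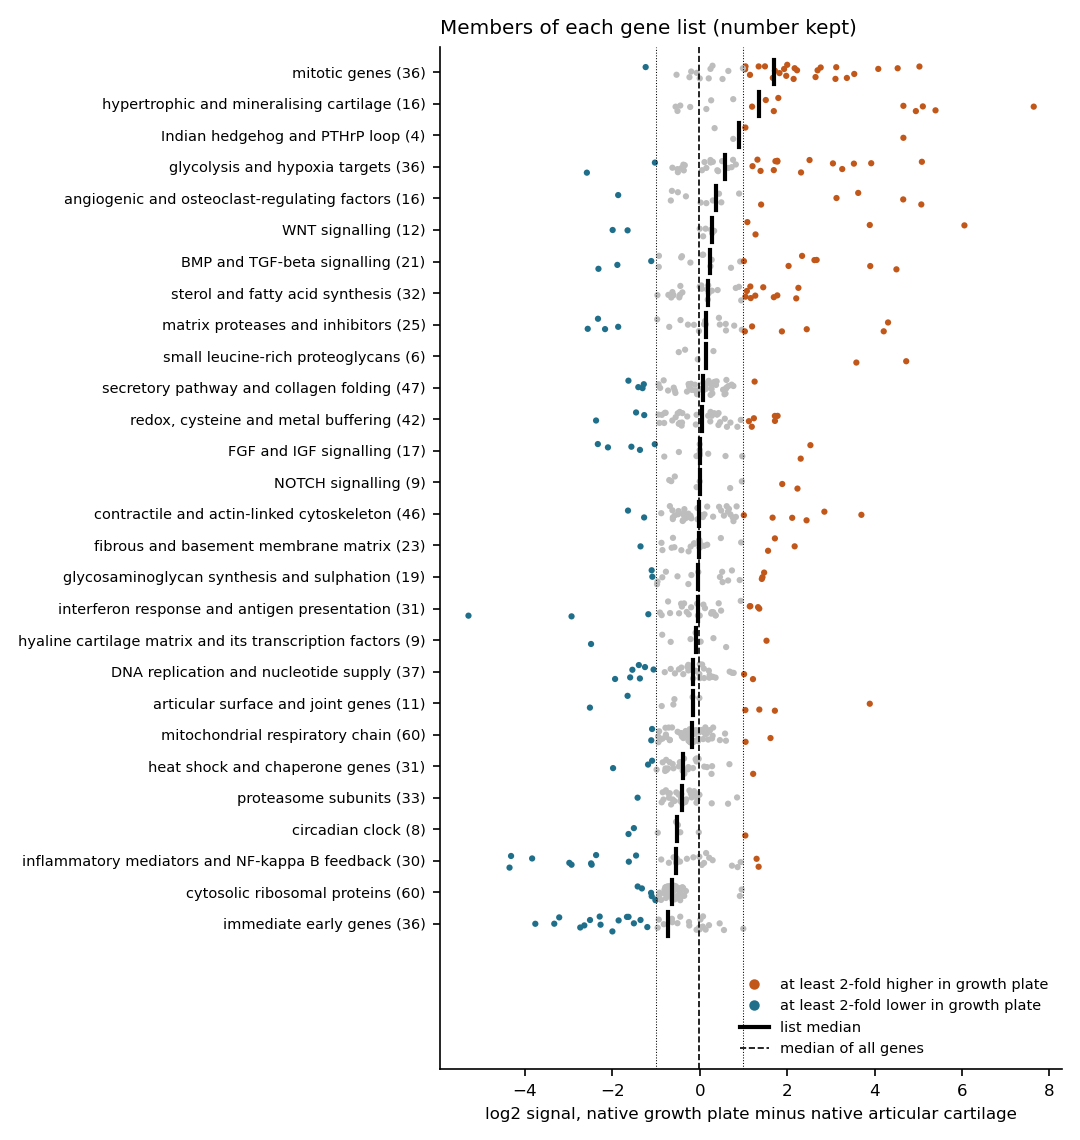
Log2 signal difference, native growth plate minus native articular cartilage, for each kept member of the 28 gene lists. Thick bars are list medians and the dashed line is the median of all 5598 genes, -0.01. Mitotic genes have the highest median, 1.70, and immediate early genes the lowest, -0.73.

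Hypoxia targets and glycolytic genes were more often higher than lower. Of 36, 14 (38.9%) were higher by at least 2-fold and 2 lower, against 12.9% and 7.88% of all genes, with a median of 0.58 that was 0.68 after quantile normalization and 0.32 after median centring. ANKRD37, a HIF target, had 1637 in the growth plate against 48.2 in articular cartilage. EGLN1, the oxygen sensor that marks HIF for decay, had 2169 in the growth plate against 226 in articular cartilage, 9.59-fold higher, and its other 2 probe sets had log2 differences of 2.93 and 1.79. MXI1, a MYC antagonist that HIF induces, had 864 in the growth plate against 56.9 in articular cartilage. SLC16A3, which exports lactate, had 964 in the growth plate against 83.5 in articular cartilage, and the glucose transporter SLC2A3 had 6978 in the growth plate against 1399 in articular cartilage. The enolase gene ENO2 had 299 in the growth plate against 23.6 in articular cartilage, at least 8.28-fold higher, and the aldolase gene ALDOC had 1306 in the growth plate against 229 in articular cartilage, 5.71-fold higher. Another 20 members were within 2-fold, among them VEGFA, ADM and ANGPTL4, with log2 differences of 0.15, 0.30 and -0.50.

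Within that list the glycolytic enzymes differed among themselves. LDHA had 15083 in the growth plate and 12730.3 in articular cartilage, PGK1 had 14309 in the growth plate and 10825 in articular cartilage and GAPDH had 14827 in the growth plate and 21102 in articular cartilage, all within 2-fold. TPI1 and GPI, enzymes of the same pathway named after their values were seen, were past 2-fold, at 8641 and 5839 in the growth plate and 2600.0 and 2527 in articular cartilage. EPAS1, which encodes HIF-2 alpha, had 332 in the growth plate against 1989 in articular cartilage, 5.99-fold lower. PKM, pyruvate kinase, had 569.9 in the growth plate against 1161 in articular cartilage, 2.04-fold lower.

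Sterol and fatty acid genes were higher in 10 of 32 cases (31.2%) and lower in 0, against 12.9% and 7.88% of all genes, with counts of 8 and 1 after quantile normalization and 6 and 0 after median centring. ELOVL6, a fatty acid elongase, had 607 in the growth plate against 127 in articular cartilage. SC5D, a late enzyme of cholesterol synthesis, had 1169 in the growth plate against 253 in articular cartilage, and HMGCS1, an early one, had 1209 in the growth plate against 501 in articular cartilage. LPL, lipoprotein lipase, had 1361 in the growth plate against 420.1 in articular cartilage. The regulators differed among themselves, with SREBF2 at 606 in the growth plate and 935 in articular cartilage and INSIG1 at 2363 in the growth plate and 3714 in articular cartilage, both within 2-fold. INSIG2, which like INSIG1 retains the sterol sensor, had 648 in the growth plate against 189 in articular cartilage, 3.42-fold higher. LPL is also an adipocyte marker, and the adipocyte hormones LEP and ADIPOQ had 21.7 and 24.3 in growth plate, under the floor, and 44.0 and 40.5 in articular cartilage.

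Genes with a solute carrier (SLC) symbol numbered 94, with 15 higher by at least 2-fold and 8 lower, against 12.9% and 7.88% of all genes, and 12 and 13 after median centring. The counts include the scaffold genes SLC9A3R1, one of the 8, and SLC9A3R2, one of the 15, which are not carriers. SLC2A5, a fructose transporter, had 6221 in the growth plate against 63.5 in articular cartilage, 98.0-fold higher. The glutamate carrier SLC1A6 had 179 in the growth plate against 36.2 in articular cartilage, and the lysosomal amino acid sensor SLC38A9 had 851 in the growth plate against 240.3 in articular cartilage. The creatine transporter SLC6A8 had 369 in the growth plate against 2384 in articular cartilage, 6.46-fold lower, and the vitamin transporter SLC5A6 had 122 in the growth plate against 521 in articular cartilage, 4.26-fold lower. The mitochondrial carrier SLC25A33 had 545 in the growth plate against 2085 in articular cartilage, 3.83-fold lower, and SLC25A37, which brings iron into mitochondria, had 626 in the growth plate against 2137 in articular cartilage, 3.41-fold lower.

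Redox and metal buffering genes changed balance with the scaling, 6 higher and 3 lower of 42 as deposited and 3 and 9 after median centring. GCLC, which limits glutathione synthesis, had 474 in the growth plate against 138 in articular cartilage, and TXNRD1, thioredoxin reductase, had 1708 in the growth plate against 748 in articular cartilage. The metallothionein MT-2B had 2348 in the growth plate against 12162 in articular cartilage, 5.18-fold lower. SOD2, the mitochondrial superoxide dismutase, had 2697 in the growth plate against 7405 in articular cartilage, and GPX1, a glutathione peroxidase, had 4448 in the growth plate against 10732 in articular cartilage.

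Immediate early genes, which cells switch on within minutes of a stimulus, were, of the 28 lists, the one with the largest share of genes lower by at least 2-fold in growth plate. Of 36 kept, 15 (41.7%) were lower by at least 2-fold and 8 lower by at least 4-fold, against 7.88% and 1.2% of all genes, and 0 were 2-fold higher. RGS2, which damps G protein signalling, had 399 in the growth plate against 4016 in articular cartilage. NR4A2, an orphan nuclear receptor, had 144 in the growth plate against 956 in articular cartilage. DUSP1, a phosphatase that switches off MAP kinases, had 2629.7 in the growth plate against 16411 in articular cartilage, and JUN, an AP-1 subunit, had 518 in the growth plate against 2955 in articular cartilage. GEM, a small GTPase, had 1333 in the growth plate against 6431 in articular cartilage, 4.82-fold lower. FOS and MYC, named after their values were seen, had 1643 and 747 in the growth plate and 6567 and 2705 in articular cartilage. All 7 were above the floor in both tissues and lower in growth plate.

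The group was not uniform. KLF10 was level at 6958 in the growth plate and 7017 in articular cartilage, and so was BTG1 at 9654 in the growth plate and 8793 in articular cartilage. IER3, a further early gene, had 3042 in the growth plate and 1524 in articular cartilage. CYR61, a matricellular early gene, had 9756 in the growth plate and 15169.5 in articular cartilage. The list median was -0.73, -0.70 after quantile normalization and -0.99 after median centring.

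Heat shock and chaperone genes lay on the same side by median, -0.39, but with few large differences, 1 higher and 3 lower of 31. CRYAB, a small heat shock protein, had 933 in the growth plate against 3691 in articular cartilage, 3.96-fold lower, and HSPB1, another, had 1199 in the growth plate against 2722 in articular cartilage, 2.27-fold lower. HSPA9, the mitochondrial HSP70, had 7738 in the growth plate against 16482 in articular cartilage. The stress-inducible DNAJB1 and HSPH1 lay within 2-fold, at 912 and 1543 in the growth plate and 749.9 and 1376 in articular cartilage. After median centring 0 were higher and 9 lower. HSPA2 was the higher member with the deposited signals, at 1461 in the growth plate against 626 in articular cartilage.

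Inflammatory mediators and genes of NF-kappa B feedback were lower in 10 of 30 cases (33.3%), 8 of them at least 4-fold, against 7.88% and 1.2% of all genes, and higher in 2. NFKBIA, which holds NF-kappa B in the cytoplasm and is induced by it, had 1849 in the growth plate against 10273 in articular cartilage. The neutrophil chemokine CXCL8 had 550.3 in the growth plate against 3084 in articular cartilage. IRF1, a transcription factor induced by interferon and NF-kappa B, had 273 in the growth plate against 2085 in articular cartilage. The constitutive cyclooxygenase gene PTGS1 had 199 in the growth plate against 1578 in articular cartilage, 7.92-fold lower, with a dim other probe set at a log2 difference of -0.78. CHI3L1, a secreted glycoprotein, had 2984 in the growth plate against 15448 in articular cartilage.

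Some other mediators lay within 2-fold. The cytokine IL1B, named with VCAM1 after their values were seen, had 181 in the growth plate and 164 in articular cartilage, the adhesion molecules ICAM1 and VCAM1 had log2 differences of 0.29 and 0.10, and PTGS2, the inducible cyclooxygenase, had 1539.7 in the growth plate and 804 in articular cartilage. PTGES, the prostaglandin E synthase that works with PTGS2, had 3875 in the growth plate against 1523 in articular cartilage, 2.55-fold higher. TNFRSF1B, a TNF receptor, had 292 in the growth plate against 1895 in articular cartilage, 6.49-fold lower, while the other TNF receptor, TNFRSF1A, had 1563 in the growth plate and 1471 in articular cartilage.

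Interferon response and antigen presentation genes went both ways, with 4 higher and 3 lower of 31. ISG15, a ubiquitin-like interferon target, had 51.8 in the growth plate against 2032 in articular cartilage, 39.2-fold lower, yet USP18, which removes ISG15 from proteins, had 215 in the growth plate against 83.5 in articular cartilage, 2.57-fold higher, and the interferon-induced GTPase GBP1 had 144 in the growth plate against 56.9 in articular cartilage, 2.52-fold higher. IFIT2 had 42.2 in the growth plate against 95.5 in articular cartilage, 2.26-fold lower. B2M, the light chain of class I molecules, had 11294 in the growth plate and 18664 in articular cartilage. Class II genes SLA-DRB1 and SLA-DQB1, left out by the filter and named after their values were seen, had 177 and 186 in the growth plate and, in the same order, 32.8 and 16.1 in articular cartilage, while CD74, the class II chaperone, was under the floor on both.

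Genes of the contractile and actin-linked cytoskeleton had 6 higher and 2 lower of 46, 13.0% and 4.35%, against 12.9% and 7.88% of all genes, so the higher share was that of all genes. S100A4, a calcium-binding partner of myosin, had 4953 in the growth plate against 381 in articular cartilage, 13.0-fold higher. ACTG2, enteric smooth muscle actin, had 936 in the growth plate against 129.5 in articular cartilage, so both smooth muscle actin genes were higher while TAGLN was lower. PDLIM1, an adaptor of actin fibres, had 197 in the growth plate against 31.3 in articular cartilage. CAPG, which caps actin filaments, had 3050.2 in the growth plate against 7370.2 in articular cartilage, 2.42-fold lower. The cytoplasmic actin ACTG1 and VIM, vimentin, were within 2-fold, at 13528 and 16543 in the growth plate and 19059.6 and 21108 in articular cartilage.

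Several housekeeping groups had medians below 0 by amounts that depended on the scaling. Of 60 cytosolic ribosomal protein genes, 58 had a negative difference and 6 were lower by at least 2-fold, a count of 2 after quantile normalization and 20 after median centring. Their median was -0.63, but -0.19 after quantile normalization, where the median of all genes was -0.08, and -0.89 after median centring, where it was -0.26. RPL5, of the large subunit, had 19959.8 in the growth plate and 27967 in articular cartilage. The proteasome median was -0.40 over 33 genes, and that of 36 translation initiation genes was -0.49. The respiratory chain lay at -0.18 over 60 and the mitochondrial ribosome at -0.03 over 58. For the cytosolic ribosome the top decile by signal, with a median of -0.35, is the closer background, and for the proteasome and the respiratory chain the deciles below it, with medians of -0.18 and -0.16.

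**Figure D4:**
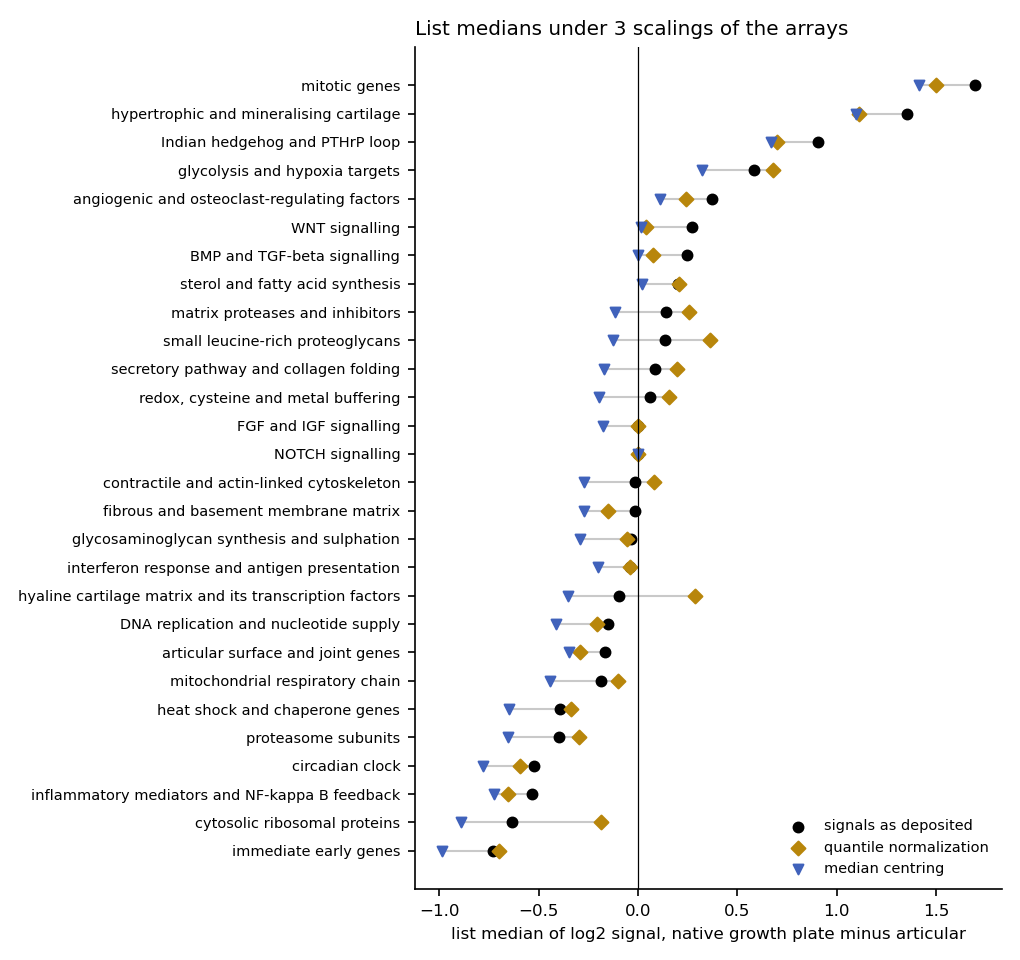
Median log2 signal difference, native growth plate minus native articular cartilage, of the 28 gene lists with the signals as deposited, after quantile normalization and after median centring. Mitotic and hypertrophic genes stay above 1.0 and immediate early and inflammatory genes below -0.5 under all 3, while the ribosomal median moves between -0.19 and -0.89 and several medians near 0 change sign.

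Smaller families also held single large differences. Among splicing factors the median was -0.34 over 45, yet SRSF5, a serine- and arginine-rich factor, had 835 in the growth plate against 205 in articular cartilage, 4.07-fold higher. Among ion channels, TRPM7, a magnesium channel with a kinase domain, had 951 in the growth plate against 173 in articular cartilage, 5.48-fold higher, and KCNMA1, the large-conductance potassium channel, had 90.9 in the growth plate against 290.3 in articular cartilage, 3.19-fold lower. Among integrins, besides ITGB3, ITGA5, of the fibronectin receptor, had 213 in the growth plate against 514 in articular cartilage, 2.42-fold lower, and its partner ITGB1 had 9732 in the growth plate and 9787 in articular cartilage. Among phosphodiesterases, PDE4B had 717 in the growth plate against 2109 in articular cartilage, 2.94-fold lower. CDH11, a cadherin of mesenchymal cells, had 556 in the growth plate against 172 in articular cartilage, 3.23-fold higher, and CDH13 had 138 in the growth plate against 312 in articular cartilage, 2.27-fold lower. The complement regulator CD55 had 191 in the growth plate against 39.6 in articular cartilage, 4.82-fold higher, and the chemokine receptor CXCR4 had 141 in the growth plate against 4.70 in articular cartilage, at least 3.90-fold higher. Among ubiquitin-conjugating enzymes, 4 of 23 were higher by at least 2-fold and 0 lower, against 12.9% and 7.88% of all genes, and the mitotic UBE2C had 1760.5 in the growth plate against 446 in articular cartilage. Of 10 cytochrome P450 genes, 3 were higher by at least 2-fold and 0 lower, among them CYP24A1, which degrades vitamin D, at 177 in the growth plate against 65.1 in articular cartilage.

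Of 8 clock genes, 1 was higher by at least 2-fold and 2 lower, 0 and 3 after either other scaling. ARNTL, the activator of the clock, had 164 in the growth plate against 79.6 in articular cartilage. Of its antagonists, BHLHE40 had 501 in the growth plate against 1551 in articular cartilage and CRY2 had 128 in the growth plate and 249 in articular cartilage. NFIL3, a clock output repressor, had 2488 in the growth plate against 7073 in articular cartilage. BHLHE40 and NFIL3 are also on the immediate early list.

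Further genes stood among the largest ratios. On the growth plate side, EFHD1, a mitochondrial calcium-binding protein, had 1523 in the growth plate against 34.4 in articular cartilage, at least 42.2-fold higher. ENPP2, autotaxin, which makes lysophosphatidic acid, had 3359 in the growth plate against 135 in articular cartilage. MRAP2, an accessory protein of melanocortin receptors, had 1717 in the growth plate against 66.8 in articular cartilage. ST8SIA4, which builds polysialic acid, had 838 in the growth plate against 9.38 in articular cartilage, at least 23.2-fold higher, and its other probe set lay under the floor on both arrays. CYP26A1, which degrades retinoic acid, had 641 in the growth plate against 10.2 in articular cartilage, at least 17.7-fold higher. ADD3, a subunit of the membrane skeleton protein adducin, had 1527 in the growth plate against 75.7 in articular cartilage, and LRRC1, a polarity scaffold protein, had 2587 in the growth plate against 152 in articular cartilage. The articular signals of these 7 genes lay between 9.38 and 152.

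On the articular side, HMGA1, an architectural chromatin protein, had 396 in the growth plate against 9486 in articular cartilage. GPRC5A, an orphan receptor induced by retinoic acid, had 342 in the growth plate against 5166 in articular cartilage, 15.1-fold lower, and its other 2 probe sets, under the floor in growth plate, had 148 and 649 in articular cartilage. ADGRG1, an adhesion receptor, had 46.0 in the growth plate against 533 in articular cartilage. SMAGP, a small membrane glycoprotein, had 66.7 in the growth plate against 668 in articular cartilage. CDA, which deaminates cytidine, had 536 in the growth plate against 3888 in articular cartilage. ITPR3, a calcium release channel, had 244 in the growth plate against 1599.5 in articular cartilage, and CLDN10, a tight junction protein, had 433 in the growth plate against 2579 in articular cartilage. NFIB, a nuclear factor I transcription factor, had 348 in the growth plate against 2038 in articular cartilage, and its other probe set had a log2 difference of -2.36. AQP1, a water channel of chondrocytes and vessels, had 85.1 in the growth plate against 486 in articular cartilage. All 9 were measured above the floor in both tissues.

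Repeat measurement on the array was limited. Of the 193 genes higher by at least 4-fold, 45 had another probe set above the floor on a native array, and on 23 of those every measured probe set was higher by at least 2-fold, on 20 some lay within 2-fold and on 2, FNTA and PPM1B, one was lower by at least 2-fold. Of the 67 lower genes, 13 had such a probe set, 7 were lower by at least 2-fold on all and 6 had some within 2-fold. FNTA, a prenyltransferase subunit, had 3299 in the growth plate against 773 in articular cartilage on the probe set used and a log2 difference of -1.27 on the other. PPM1B, a protein phosphatase, is named after its values were seen.

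The cultures give the same comparison between isolated cells. Cultured growth plate and articular cells differed at least 2-fold for 191 genes higher (3.41%) and 217 lower (3.88%) at day 10, and for 159 (2.84%) and 226 (4.04%) at day 20, fewer than between the native tissues. At 4-fold there were 35 higher (0.625%) and 28 lower (0.5%) at day 10, and 22 (0.393%) and 40 (0.715%) at day 20. Of the 193 genes higher by at least 4-fold natively, 46 were higher by at least 2-fold at day 10, 32 at day 20 and 18 (9.33%) at both, against 0.893% of all genes at both days. Of the 67 lower, 17 were lower by at least 2-fold at day 10, 16 at day 20 and 8 (11.9%) at both, against 1.2% of all genes at both days. Under 2-fold at both days were 116 of the 193 and 40 of the 67. The median difference of the 193 was 2.51 natively, 0.19 at day 10 and 0.23 at day 20, and that of the 67 was -2.47, -0.59 and -0.26.

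Several genes with a lasting difference were outside mineralisation. ENPP2 had 3359, 2955 and 1413 in growth plate samples in native tissue, at day 10 and at day 20, and 135, 293 and 443 in articular samples. ANGPT1 had 1642, 1338 and 704 in growth plate samples and 48.8, 79.8 and 216 in articular samples. In both genes the growth plate signal lay above the articular one at each stage, and the ratio was smallest at day 20. SHROOM2, an actin-binding protein, had log2 differences of 3.23, 1.38 and 1.44, and PDE6C, a phosphodiesterase of cone photoreceptors, had 2.98, 4.25 and 1.17.

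On the lower side, NFIA, the relative of NFIB, had 103, 66.9 and 34.6 in growth plate samples and 476, 368 and 392 in articular samples. NFIB had log2 differences of -2.55, -1.45 and -2.33. AQP1 had 85.1, 117 and 486 in growth plate samples and 486, 391 and 2831 in articular samples, so its signal was highest at day 20 in both. ABTB2, an ankyrin repeat protein, had -2.59, -1.51 and -1.72. Both nuclear factor I genes were thus lower in growth plate at each of the 3 stages.

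Some group medians were similar in culture and others were not. The hypertrophic list had medians of 1.35, 1.56 and 0.66 natively, at day 10 and at day 20, and the inflammatory list had -0.53, -0.52 and -0.43. The mitotic list had 1.70, -0.35 and -0.13, the immediate early list -0.73, -0.07 and 0.19, and the ribosomal list -0.63, -0.17 and -0.02. SOX9 had -2.49 natively and 0.62 and 0.62 in culture, and TIMP3 had -1.87, 2.07 and 1.22. The cultures were also single arrays, and whether they came from the same animals as the native tissue is not given in the labels.

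**Figure D5:**
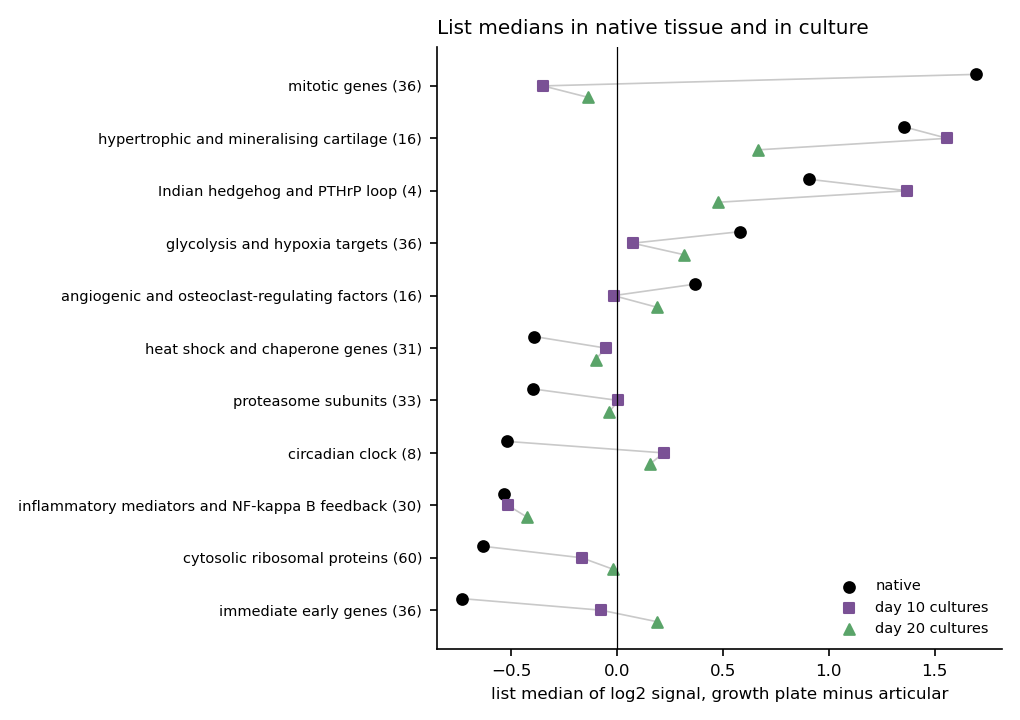
Median log2 signal difference, growth plate minus articular, in native tissue (circles), day 10 cultures (squares) and day 20 cultures (triangles), for the gene lists whose native median was furthest from 0. The mitotic median is 1.70 natively and -0.35 and -0.13 in culture, whereas the hypertrophic median is above 0.6 at all 3 stages.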

How the data were processed

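Gene expression was measured on 6 Affymetrix porcine arrays, 1 array for each condition, of which the native growth plate and native articular arrays are compared here. Per the labels' protocols, RNA was prepared by Trizol extraction followed by RNeasy columns, and was labelled in 2 amplification cycles from 100 ng. The deposited values are linear probe set intensity values, made by the authors with GCOS 1.4 per the submitters' processing notes, whose expression algorithm and scaling target are not given in the sources used here. Since the 2% trimmed means of the deposited intensities were nearly equal, from 395 to 396, no further normalization was applied. No detection calls were used, so the floor stands in for a limit of detection.

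The array holds 24123 probe sets, of which 124 are controls and were not used. Of the other 23999, 10069 had 1 gene symbol in the platform annotation, 198 had several and 13732 had none. Symbols were brought up to date through the gene ID for 9961 probe sets, which gave 6765 genes. Each gene was represented by the probe set of highest mean log2 intensity over the 6 arrays, and 5598 genes above the floor on at least 2 of the 6 arrays were kept. The floor was the 40th percentile of all non-control intensities. The size rules were 4-fold and 2-fold.

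With 1 array a tissue, the number of arrays limits the precision, no error could be given and no test or adjusted value was computed. The genes named are the 30 of largest ratio each way, fixed cartilage genes, up to 6 list members each way by difference and 4 by signal, marker genes, and up to 12 genes each way that also differed in culture. Other genes are said to be named after their values were seen. The members, the 28 gene lists, 41 families and 13 marker lists were chosen with earlier results of these data known. Alternatives covered the scaling, floor, pseudocount, filter, probe set choice and size rule. The procedure was run on simulated data with known folds set in genes well above the floor and with an assumed noise. That run does not cover genes near the floor or the spread between animals. Python 3.11.15 with pandas 2.3.3, numpy 2.4.6 and matplotlib 3.10.9 was used.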

Additional observations from a re-analysis of the deposited data

Results flagged for a closer look

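Of the 193 genes past 4-fold on the growth plate side natively, 4 were lower by at least 2-fold in cultured growth plate cells at both days, so the native pair and both culture pairs went opposite ways. With 1 array a condition, the difference was not tested for any of them. F2R, the thrombin receptor, had a native log2 difference of 2.62, with 358 in the growth plate against 58.4 in articular cartilage. In its cultures the signals were 71.5 for growth plate cells and 241 for articular cells at day 10, and 51.4 and 235 in the same order at day 20, log2 differences of -1.75 and -2.19. TGFB3, a TGF-beta ligand, had a native difference of 2.68, with 911 in the growth plate against 143 in articular cartilage, and differences of -2.26 and -2.19 at day 10 and day 20. Its other probe set had a native difference of -0.46. SEPT4, a septin, had a native difference of 2.29, with 195 in the growth plate against 39.7 in articular cartilage, and -1.19 and -2.48 in culture. FNTA, a prenyltransferase subunit, had a native difference of 2.09 and -2.92 and -2.71 in culture. Its other probe set had a native difference of -1.27, opposite to the one used.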

How the results depend on the processing

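No paired analysis was possible because each condition has 1 array, and for the same reason no array could be left out in turn. The counts of 193 genes higher by at least 4-fold and 67 lower were recomputed under 14 settings, and 23 of these 28 counts lay within 1.5 times of the value given. The higher count was 107 with the floor at the 60th percentile. The size rule moved the counts by construction, to 721 and 441 at 2-fold and 56 and 11 at 8-fold. Quantile normalization gave 149 and 78 genes, median centring 142 and 95, averaging all probe sets of a gene 145 and 56, and both native arrays above the floor 148 and 62. Choosing the probe set after the floor, an alternative added after seeing the data, gave 193 and 68.

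Of 6870 recomputed values of 640 genes, 6680 lay within 1.5-fold of the value given, 188 moved further and 2 of genes past 2-fold turned their sign. These were FNTA at -1.27 with the probe set of highest native signal and RPL35, a ribosomal protein, at 0.19 with all its probe sets averaged. Part of the 6680 was fixed in advance. Settings that change the filter alone leave a gene's value as it was, which covers 640, 633 and 569 values. Median centring shifts genes above the floor by the same amount, under 1.5-fold, which covers 638 more. Of 878 recomputed list medians, 857 held, 14 moved and 7 turned their sign, counting medians at least 0.1 from 0 on both sides. The chondrocyte marker median was 0.35 after quantile normalization and 0.11 with every probe set as a feature. After median centring the small leucine-rich proteoglycans were at -0.12, the matrix proteases at -0.12 and the SLC genes at -0.10. The SLA genes were at 0.17 both with the floor at the 25th percentile and with at least 1 native array above the floor. With at least 1 native array above the floor, the SLA list gains SLA-DQA1, SLA-DQB1 and SLA-DRB1, which the main filter left out. Their log2 differences were 1.55, 2.36 and 2.29, and SLA-DQA1 is named after its values were seen. The causes of the other turns were not tested. Signals under the floor have no order, so ratios of the 45 higher and 5 lower genes with a floored array are bounds.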

Other observations

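Probe sets without a gene symbol were not part of the comparison. Of 13732, 7919 passed the same filter, 361 (4.56%) were higher by at least 4-fold in growth plate and 81 (1.02%) were lower by at least 4-fold. Their identity was not analysed here.

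Some genes left out by the filter also differed between the native arrays, and they are named after their values were seen. RPL30, a ribosomal protein, had 2.16 in the growth plate and 213 in articular cartilage, and LMO2, a transcriptional adaptor of blood and endothelial cells, had 22.3 in the growth plate and 212 in articular cartilage. Both were under the floor on the growth plate array.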
